A study of Mus musculus with 10 samples.

Results

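A set of 10 marker genes of lymphatic and blood endothelium was followed through regulatory T cells (Tregs) sorted from mouse melanomas and lymph nodes (LN). The 10 genes, taken by symbol from the 21556 genes of the count table, were Prox1, Lyve1, Flt4, Pdpn, Mmrn1, Vwf, Pecam1, Cdh5, Kdr and Mecom, and each matched 1 Ensembl identifier. The MHCII-deleted mice, labelled MHCIIdeltaProx-1 and Prox1CrePos, carried a Cre recombinase under Prox1 control together with the floxed MHC class II allele MHCIIfl/fl, so that lymphatic endothelial cells, the cells in which Prox1 is active, lacked MHC class II. The control mice, labelled MHCIIfl/fl and Prox1CreNeg, carried the same floxed allele without Cre. All mice were 10 weeks old and had received a lymphangiogenic mouse melanoma line. There were 2 libraries from tumors of MHCII-deleted mice, 3 from tumors of control mice, 2 from LN of MHCII-deleted mice and 3 from LN of control mice. The Tregs were sorted by a red fluorescent reporter and their RNA was amplified with a low-input kit before sequencing. The labels do not say whether libraries of a group came from separate animals, so p-values measure only the spread between these libraries.

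Endothelial cells line vessels, and lymphatic endothelium is set apart from blood endothelium by the transcription factor Prox1, which is needed to make and keep the lymphatic identity. Growth of lymphatic vessels in tumors is driven by VEGF-C, which binds the receptor VEGFR3 (Flt4), whereas VEGF-A acts on blood vessels mainly through VEGFR2 (Kdr). None of the 10 genes is a Treg lineage gene, but several are not exclusive to endothelium: Pecam1 is also found on leukocytes and platelets, Vwf and Mmrn1 in platelets and megakaryocytes, Lyve1 on some macrophages, Pdpn on fibroblasts and Mecom in blood stem cells. Endothelium was not what the sort collected, and in such bulk samples more cells of a type and more RNA per cell cannot be told apart.

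The stretches just upstream of the transcription starts are shown for 3 members, because Prox1 and Kdr differed several-fold between the 2 tumor libraries of MHCII-deleted mice while Pdpn did not, as given further on. They hold the 250 bases before the RefSeq start on GRCm38.p6, written 5′ to 3′ on the gene's strand. Capitals mark GGAA, the core of ETS factor sites (ETS factors such as Erg act in all endothelium), and GGGCGG, the GC box, each on either strand (TTCC and CCGCCC), and no match of one overlapped a match of the other.
Prox1, chr1:190170828-190171077, minus strand: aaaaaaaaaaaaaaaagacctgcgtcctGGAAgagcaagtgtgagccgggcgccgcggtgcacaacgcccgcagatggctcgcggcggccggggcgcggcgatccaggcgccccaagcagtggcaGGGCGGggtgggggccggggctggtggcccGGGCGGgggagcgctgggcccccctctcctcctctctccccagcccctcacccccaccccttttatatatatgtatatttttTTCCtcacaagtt
Kdr, chr5:75978456-75978705, minus strand: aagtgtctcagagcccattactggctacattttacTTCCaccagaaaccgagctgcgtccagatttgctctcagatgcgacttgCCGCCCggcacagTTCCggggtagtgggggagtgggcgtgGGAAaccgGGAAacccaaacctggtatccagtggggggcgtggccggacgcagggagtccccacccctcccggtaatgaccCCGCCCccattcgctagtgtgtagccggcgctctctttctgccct
Pdpn, chr4:143299565-143299814, minus strand: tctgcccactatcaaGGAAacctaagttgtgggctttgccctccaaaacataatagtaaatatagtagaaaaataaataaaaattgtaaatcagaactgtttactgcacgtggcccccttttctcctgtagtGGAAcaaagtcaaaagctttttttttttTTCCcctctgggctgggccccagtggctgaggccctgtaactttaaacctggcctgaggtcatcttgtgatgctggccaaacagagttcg
The Kdr stretch held 4 GGAA cores and 2 GC boxes, the Prox1 stretch 2 and 2, and the Pdpn stretch 3 and 0. A second Prox1 start has a stretch with 5 cores and 1 GC box, of which 118 bases lie in an annotated exon, and it is not printed. Across 32536 stretches of the same length from all annotated starts, 93.4% held at least 1 GGAA core, with a median of 3, and 33.0% held at least 1 GC box. The GC content was 64.8% for Prox1, 61.6% for Kdr and 43.2% for Pdpn, against a median of 52.4% over all stretches. These matches describe the letters only, and the genes were chosen after their counts were seen. Entries were found for 6 of the 10 genes. Those of Flt4 and Mecom overlap annotated exons by at least 63 bases and are not printed. That of Mmrn1 lies in an intron of the GENCODE gene, away from its first start, and is not printed either. The Kdr stretch overlaps one by 3 bases, and Lyve1, Vwf, Pecam1 and Cdh5 had none.

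Each library held 28539329 to 35736175 counts. Levels are given as CPM, the count per 1000000 counts of the library after TMM scaling, a correction for composition. With 0 counts, a true level as high as 3 counts, which is 0.0809 to 0.107 CPM depending on the library, would be possible, counting error only. The sort was checked against Foxp3, the defining Treg transcription factor, which reached 349 and 342 CPM in tumors of MHCII-deleted mice, 646 to 817 CPM in tumors of control mice, 580 and 654 CPM in LN of MHCII-deleted mice and 644 to 747 CPM in LN of control mice. The deletion itself lies in lymphatic endothelial cells and could not be checked in sorted Tregs. The summed level of 14 melanoma markers was 19404 and 23710 CPM in tumors of MHCII-deleted mice and 4895 to 9553 CPM in tumors of control mice, and it stayed at 16.3 to 34.5 CPM in LN. The sum of 20 pan-T cell genes was 6820 and 7921 CPM in tumors of MHCII-deleted mice and 15780 to 16372 CPM in tumors of control mice. Melanoma marker RNA was thus measured in every tumor library, at unequal levels in the 2 genotypes, and its part in the values below was not tested.

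Apart from Pecam1, the endothelial markers were near or below the detection floor in LN, with Prox1 as the exception, and measurable in tumors. The summed level of the 9 genes without Pecam1 was 84.1 and 257 CPM in tumors of MHCII-deleted mice, 21.6 to 39.8 CPM in tumors of control mice, 1.14 and 1.06 CPM in LN of MHCII-deleted mice and 0.728 to 1.90 CPM in LN of control mice. The tumor libraries of MHCII-deleted mice had 0 members at a count of 0, those of control mice had 0, 3 and 4, and LN libraries had 3 to 6. All 10 genes passed the low-count filter used for testing, but only 2 of them, Prox1 and Pecam1, would have passed without the tumor libraries. The other 8 passed through their tumor counts, and for 3 of these (Mmrn1, Cdh5 and Kdr) the tumors of MHCII-deleted mice were needed.

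**Figure D1:**
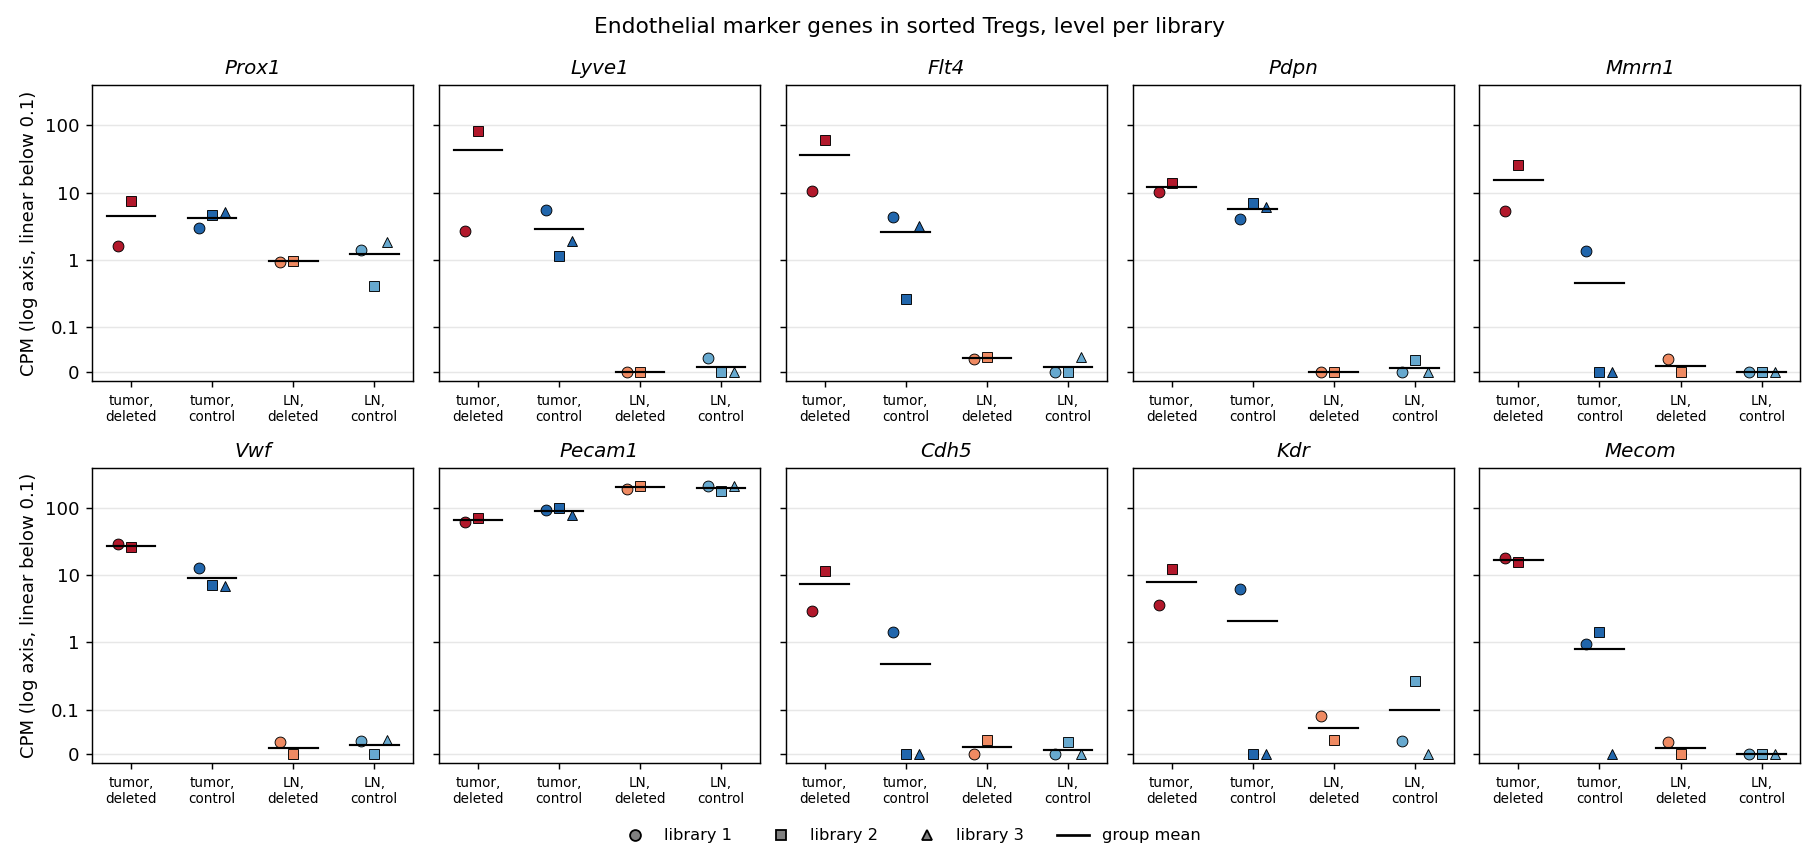
Level of each of the 10 endothelial marker genes in each of the 10 libraries, in CPM on an axis that is logarithmic above 0.1 and linear below, with 1 symbol per library and a line at each group mean. Pecam1 is highest in LN (180 to 215 CPM), Prox1 is low in all libraries, and the other 8 genes are near 0 in LN and unequal between tumor libraries.

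Prox1 (ENSMUSG00000010175, chromosome 1, 190118035 to 190170714, minus strand, GRCm38), the gene whose regulatory region drove Cre, did not differ detectably between genotypes. It had 1.61 and 7.41 CPM in tumors of MHCII-deleted mice, against 3.02, 4.59 and 5.08 CPM in tumors of control mice. The 2 libraries of MHCII-deleted mice lay on either side of all 3 control libraries. The difference was 0.09 ± 0.75 on the log2 scale (SE, edgeR quasi-likelihood test, Benjamini-Hochberg adjusted p = 0.941). In LN it had 0.938 and 0.965 CPM in MHCII-deleted mice, against 1.40, 0.405 and 1.84 CPM in control mice, a log2 difference of -0.35 ± 0.78 (adjusted p = 1). These LN levels rest on 15 to 55 counts per library, while Flt4, Lyve1 and Mmrn1 had at most 1 count in any LN library, so the low Prox1 signal in LN stood without those lymphatic markers.

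Lyve1 (ENSMUSG00000030787, chromosome 7, 110850607 to 110863239, minus strand), the hyaluronan receptor of lymphatic capillaries, had 2.72 and 83.3 CPM in tumors of MHCII-deleted mice, against 5.47, 1.16 and 1.88 CPM in tumors of control mice. Only library 2 of the MHCII-deleted mice was high, and library 1 fell within the range of the control libraries. The log2 fold change of 3.92 ± 1.16 passed the test (edgeR, adjusted p = 0.0359), but without library 2 it was -0.06 (adjusted p = 0.986). Over 17 alternative settings the adjusted p of Lyve1 ran from 0.00242 to 0.986, and 6 of them called it. In LN, Lyve1 had 0 counts in both libraries of MHCII-deleted mice and 1 count over the 3 libraries of control mice. The 14 macrophage and dendritic cell markers, from cells that can carry Lyve1, summed to 33.2 and 25.4 CPM in tumors of MHCII-deleted mice and 23.9 to 37.1 CPM in tumors of control mice. Lyz2 set the difference between the first 2, at 19.2 CPM in library 1 and 0.744 CPM in library 2, while several macrophage genes were higher in library 2, with Mrc1 at 0 counts in library 1 and 91 in library 2, Adgre1 at 0 and 22, and C1qb at 7 and 59. Their part in the Lyve1 level was not tested.

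Flt4 (ENSMUSG00000020357, chromosome 11, 49609263 to 49652739, plus strand), the VEGF-C receptor VEGFR3, was higher in tumors of MHCII-deleted mice in both libraries. It had 10.6 and 60.8 CPM there, against 4.31, 0.264 and 3.16 CPM in tumors of control mice, and the groups did not overlap. The log2 fold change was 3.79 ± 0.96 (edgeR, adjusted p = 0.0171), and 14 of 17 alternatives called it. Without library 2 of the MHCII-deleted mice it was 2.04 (adjusted p = 0.234, the highest of a range that starts at 0.000818). Its LN libraries held at most 1 count each.

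Mmrn1 (ENSMUSG00000054641, chromosome 6, 60924976 to 60989378, plus strand), multimerin 1, a secreted protein of lymphatic endothelium and platelets, had 5.34 and 25.4 CPM in tumors of MHCII-deleted mice, against 1.34, 0 and 0 CPM in tumors of control mice. The groups did not overlap, yet the log2 fold change of 5.07 ± 1.72 missed the threshold (edgeR, adjusted p = 0.0637). Pdpn (ENSMUSG00000028583, chromosome 4, 143267431 to 143299564, minus strand), podoplanin, the membrane glycoprotein that keeps lymph and blood vessels separate, had 10.1 and 14.1 CPM in tumors of MHCII-deleted mice, against 4.06, 6.97 and 6.04 CPM in tumors of control mice. Its groups did not overlap either, and its log2 fold change of 1.09 ± 0.50 also missed the threshold (adjusted p = 0.131). Pdpn was thus the most even of the lymphatic markers across tumor libraries. The sum of 14 fibroblast and pericyte markers, cells that also carry Pdpn, was 402 and 1061 CPM in tumors of MHCII-deleted mice and 646 to 4327 CPM in tumors of control mice.

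Vwf (ENSMUSG00000001930, chromosome 6, 125546774 to 125686679, plus strand), von Willebrand factor, the clotting glycoprotein stored in blood endothelium, rose with little spread between libraries. It had 28.9 and 26.1 CPM in tumors of MHCII-deleted mice, against 12.9, 7.13 and 6.85 CPM in tumors of control mice, with no overlap. The log2 fold change was 1.62 ± 0.41 (edgeR, adjusted p = 0.0159), and 16 of 17 alternatives called it. The exception left out library 1 of the MHCII-deleted mice, with 1.54 and an adjusted p of 0.0807 in a range that starts at 0.000166. Platelet and megakaryocyte markers, which share Vwf, summed to 9.95 and 9.30 CPM in tumors of MHCII-deleted mice and 14.9 to 35.0 CPM in tumors of control mice, most of it F2rl2, and Gp6 and Treml1 were at 0 in every library.

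Mecom (ENSMUSG00000027684, chromosome 3, 29951296 to 30548008, minus strand) encodes a zinc finger transcription factor active in arterial endothelium and blood stem cells. Like Vwf and Pecam1, it had close replicates in tumors of MHCII-deleted mice. It had 18.3 and 15.9 CPM there, against 0.947, 1.45 and 0 CPM in tumors of control mice, with no overlap. The log2 fold change was 4.41 ± 1.19 (edgeR, adjusted p = 0.0287), and 12 of 17 alternatives called it. Its fitted value stayed between 3.83 and 5.73 in all of them, with adjusted p from 0.00250 to 0.110, and the call was lost when tumor library 1 or tumor library 2 of the MHCII-deleted mice was left out.

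Cdh5 (ENSMUSG00000031871, chromosome 8, 104101625 to 104144511, plus strand), VE-cadherin, the adhesion molecule of endothelial junctions, had 2.89 and 11.7 CPM in tumors of MHCII-deleted mice, against 1.44, 0 and 0 CPM in tumors of control mice. The groups did not overlap, but its log2 fold change of 3.91 ± 1.68 did not pass (edgeR, adjusted p = 0.109). Kdr (ENSMUSG00000062960, chromosome 5, 75932827 to 75978458, minus strand), VEGFR2, had 3.60 and 12.2 CPM in tumors of MHCII-deleted mice, against 6.32, 0 and 0 CPM in tumors of control mice. Library 1 of the control tumors lay between the 2 libraries of MHCII-deleted mice, and the log2 difference was 1.90 ± 1.91 (adjusted p = 0.484). Mmrn1, Cdh5 and Kdr were therefore all detected in control tumor library 1 and at 0 counts in control tumor libraries 2 and 3. With control tumor library 1 left out, these genes would be set against control tumors at 0 counts, so no call is read from that fit.

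Pecam1 (ENSMUSG00000020717, chromosome 11, 106654217 to 106750628, minus strand), the adhesion molecule CD31, behaved unlike the other 9. It had 61.8 and 71.7 CPM in tumors of MHCII-deleted mice, against 94.1, 99.8 and 79.0 CPM in tumors of control mice. In LN it was at 193 and 215 CPM in MHCII-deleted mice and 211, 180 and 214 CPM in control mice. In tumors it was lower in MHCII-deleted mice, with a log2 fold change of -0.45 ± 0.14 (edgeR, adjusted p = 0.0348) and no overlap. That direction depends on the scaling: with libraries scaled to the pan-T cell genes instead, the median log2 fold change of all genes moved to 1.24 and that of Pecam1 to 0.68 (adjusted p = 0.00128). Of 17 alternatives 10 called Pecam1 in either direction, with adjusted p up to 0.186. Per 1000 counts of pan-T cell genes there were 9.05 and 9.05 Pecam1 counts in tumors of MHCII-deleted mice, against 5.01 to 6.15 in tumors of control mice. In LN the same ratio was 12.0 and 13.5 in MHCII-deleted mice and 10.6 to 13.0 in control mice.

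Set together, 5 of the 10 genes were called in the deletion effect in tumor, 4 higher (Lyve1, Flt4, Vwf and Mecom) and 1 lower (Pecam1). Over all 13920 genes tested, 28.7% were called in this comparison, 15.0% higher and 13.7% lower (2092 and 1907 genes). The share of all genes without overlap between the groups was not counted, so the lack of overlap given gene by gene is a description only. Scaled to the pan-T cell genes, 9440 genes were higher and 45 lower, and 8 of the 10 markers were called, all higher. No median over the 10 genes is given, since Mmrn1, Cdh5 and Kdr entered the test only through the tumors of MHCII-deleted mice. The identity of the called genes depended on single libraries: Lyve1 and Flt4 were the 2 left without library 1 of the MHCII-deleted tumors, and Vwf and Pecam1 the 2 left without library 2. In a fit of the tumor libraries alone, Vwf was the 1 gene called. The method mattered as well. With limma-voom, Lyve1 and Pecam1 were not called, and Pdpn, Mmrn1, Cdh5 and Kdr were called beside Flt4, Vwf and Mecom. Mmrn1, Cdh5 and Kdr entered only through the tumors of MHCII-deleted mice, where they are high, so their calls are not read. That also holds for Mmrn1 and Cdh5 among the 8 called with scaling to the pan-T cell genes.

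**Figure D2:**
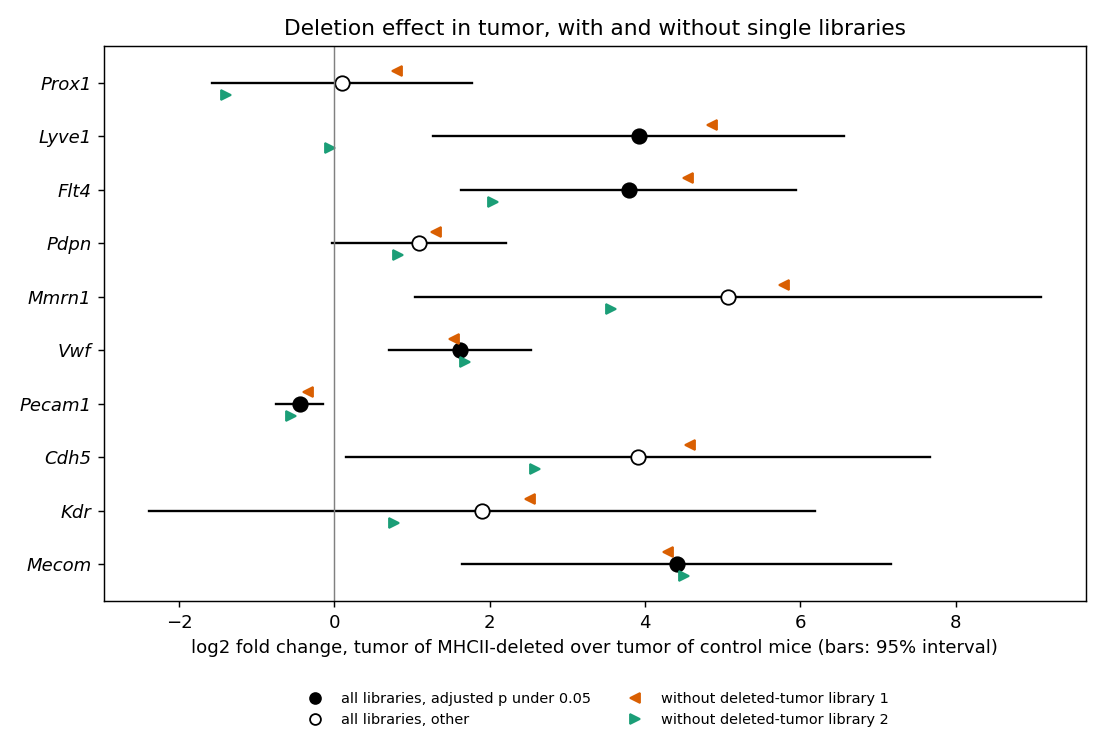
Log2 fold change of each marker gene in tumors of MHCII-deleted mice over tumors of control mice, with 95% intervals as bars, filled points for adjusted p under 0.05, and triangles for the fits without tumor library 1 or 2 of the MHCII-deleted mice. For Lyve1 the 2 triangles lie at 4.87 and -0.06, whereas those of Vwf and Mecom lie close to their points.

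The deletion effect in LN called 0 of the 10 genes, where 1.11% of all genes were called, 1.07% as higher. No member reached an unadjusted p under 0.05 there with edgeR (0 genes), and DESeq2 and limma-voom called 0 as well. Pecam1, the one member with high counts in LN, differed by 0.02 ± 0.13 on the log2 scale (edgeR, adjusted p = 1). The other members apart from Prox1 had at most 3 counts in a LN library, except for Kdr with 10 in 1 library, so a difference was not detectable at this depth.

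The test of whether the deletion effect differed between tumor and LN called 0 of the 10 genes by edgeR, against 10.7% of all genes, 4.14% higher and 6.57% lower (576 and 915 genes, or 6241 and 21 scaled to the pan-T cell genes). With edgeR, Pecam1 alone had an unadjusted p under 0.05 (1 gene), with a difference of -0.47 ± 0.19 on the log2 scale and an adjusted p of 0.148. DESeq2 and limma-voom also called 0. Scaling to the pan-T cell genes turned the difference of Pecam1 to 0.62 and called it. The higher levels in tumors of MHCII-deleted mice were thus not shown to differ from the LN effect, where most members had too few counts to carry one.

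The 2 tumor libraries of MHCII-deleted mice differed from each other, and not equally for all markers. Library 2 over library 1, Lyve1 had a ratio of 30.6 (95% interval 24.5 to 38.6, counting error only). Flt4 had a ratio of 5.72, Mmrn1 4.75, Prox1 4.59, Cdh5 4.04 and Kdr 3.39. Pdpn, at 1.40, and Pecam1, at 1.16, were closer to even, and Vwf and Mecom were slightly lower in library 2, at 0.904 and 0.868. Of 11816 genes with at least 100 counts over both libraries, 4.70% were more than 4-fold higher in library 2. The ratio of Lyve1 was higher than that of 99.7% of these genes, and the ratio of Mecom higher than that of 33.9%. The 18 other lymphatic endothelial genes summed to a ratio of 6.96 and the 22 other blood and pan-endothelial genes to 1.79. Melanoma markers had a ratio of 1.22, pan-T cell genes 1.16, fibroblast and pericyte markers 2.64, and macrophage and dendritic cell markers 0.766. The sum of the blood and pan-endothelial list is carried by Eng and Egfl7, with ratios of 0.867 and 1.08. Gene by gene, 15 of the 22 blood and pan-endothelial genes were more than 2-fold higher in library 2 (median ratio 3.18), among them Rasip1 at 21.0, Cldn5 at 14.4, Plvap at 12.2 and Tie1 at 5.61, against 13 of the 18 lymphatic genes (median ratio 7.66). Library 2 thus had higher levels of most lymphatic and most blood endothelial genes, beside melanoma and T cell sums within 1.22-fold. The rise was not confined to endothelial lists. The fibroblast and pericyte sum (2.64) and the B and plasma cell sum (1.81) were also higher there. The macrophage and dendritic cell sum (0.766) and the platelet and megakaryocyte sum (0.934) were lower.

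**Figure D3:**
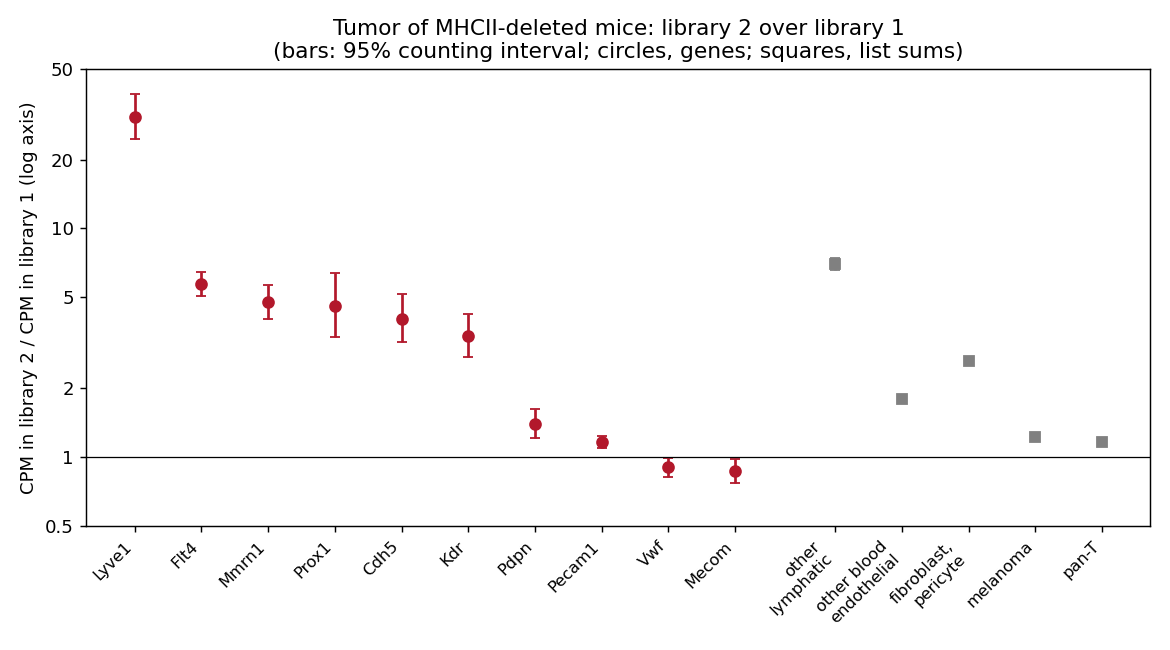
Ratio of tumor library 2 over tumor library 1 of the MHCII-deleted mice for each marker gene, on a log axis, with 95% counting intervals, and for the sums of 5 marker lists (squares). Lyve1 is at 30.6, 5 further genes lie between 3.39 and 5.72, and Pdpn, Pecam1, Vwf and Mecom lie between 0.868 and 1.40.

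**Figure D4:**
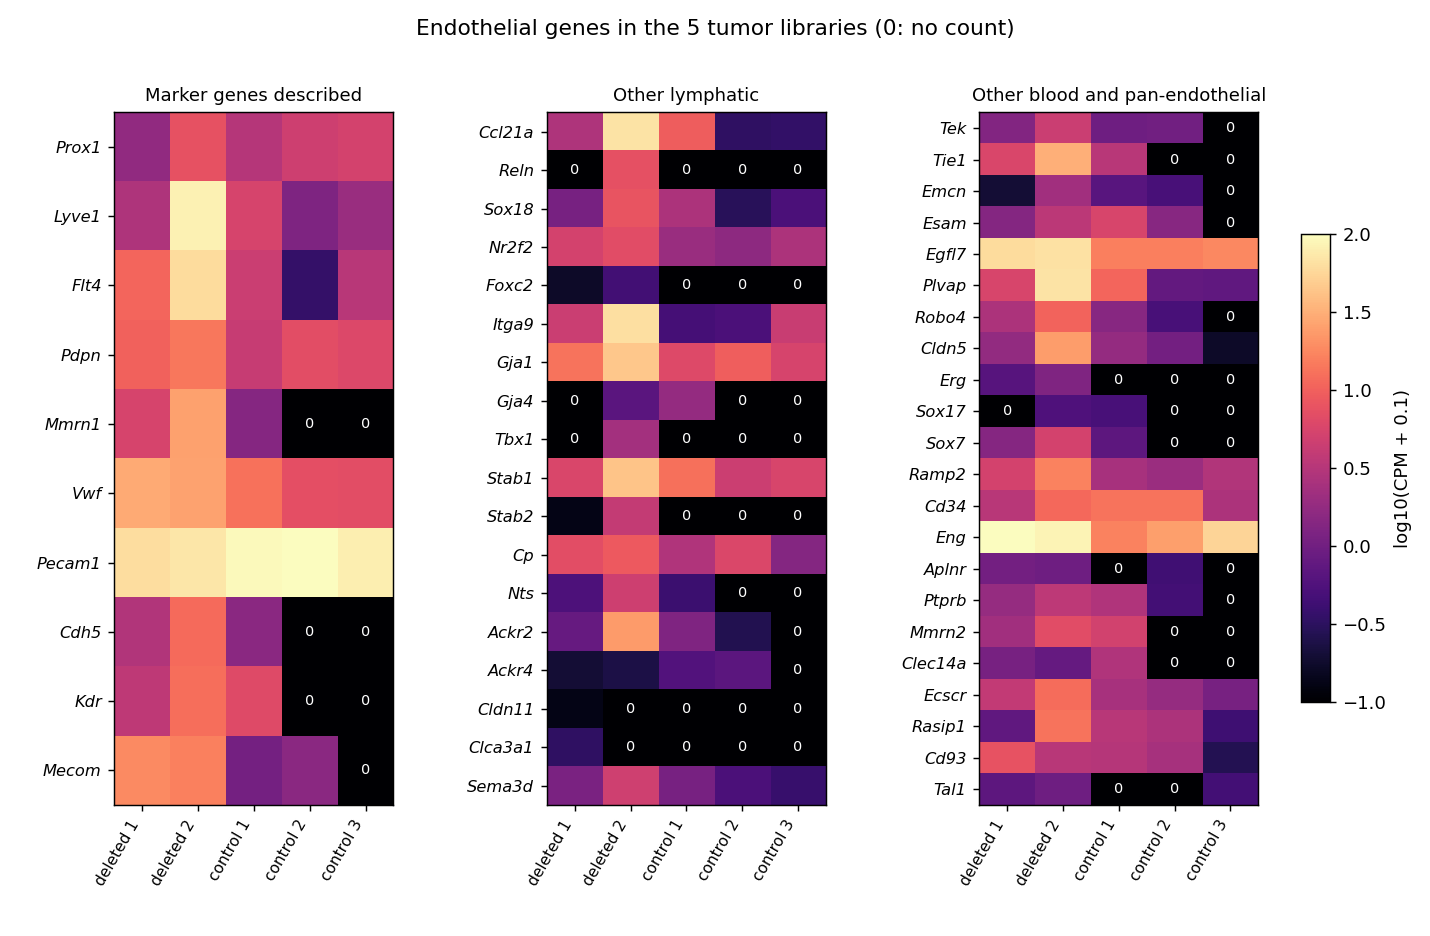
Heat maps of log10(CPM + 0.1) in the 5 tumor libraries for the 10 marker genes, 18 other lymphatic endothelial genes and 22 other blood and pan-endothelial genes, with MHCII-deleted left of control mice and 0 written where there was no count. Library 2 of the MHCII-deleted mice stands highest for Lyve1, Flt4 and Mmrn1. Both libraries of MHCII-deleted mice stand above all control libraries for Flt4, Pdpn, Mmrn1, Vwf, Cdh5 and Mecom. How many of all genes separate in this way was not counted, and Mmrn1 and Cdh5 entered the test only through the tumors of MHCII-deleted mice.

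Per kilobase of exon, the order of the markers also differed between these libraries. In library 2 of the MHCII-deleted tumors, Lyve1 led at 28.5 CPM per kb, followed by Pecam1 at 11.5, Pdpn at 7.78 and Flt4 at 7.38 CPM per kb. In library 1, Pecam1 led at 9.92 CPM per kb, followed by Pdpn at 5.55, Vwf at 1.80 and Mecom at 1.47 CPM per kb, with Lyve1 at 0.933 CPM per kb. Prox1 was lowest in both, at 0.883 CPM per kb in library 2 and 0.192 CPM per kb in library 1. In tumors of control mice the mean levels were 14.6 CPM per kb for Pecam1, 3.13 for Pdpn, 0.971 for Lyve1, 0.558 for Vwf and 0.504 for Prox1, and Flt4, Kdr, Cdh5, Mmrn1 and Mecom lay below these. Neighbours in that control order from Lyve1 downward overlapped in their library values.

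In each genotype the markers had higher means in tumor than in LN, except Pecam1. In MHCII-deleted mice 8 of the 10 genes were called, 7 higher and 1 lower, where 44.4% of all genes were called, 24.3% higher and 20.1% lower (3383 and 2792 genes, or 8619 and 372 scaled to the pan-T cell genes). In control mice 6 of the 10 were called, 5 higher and 1 lower, where 38.9% of all genes were called, 22.8% higher and 16.1% lower. As 8 of the genes entered the test through their tumor counts, these counts describe the genes and are not read further. Lyve1 was at least 1022-fold and Pdpn at least 271-fold higher in tumors than in LN of MHCII-deleted mice, against a floor of 3 counts over the LN group. Library 2 carries the Lyve1 limit, with 2911 of 2992 counts, and on library 1 alone it is at least 60.2-fold. In control mice, Mecom was at least 27.4-fold and Mmrn1 at least 16.1-fold higher in tumors, although Mmrn1 did not pass there (edgeR, adjusted p = 0.0858). Vwf had 1772 counts in tumors and 1 count in LN of MHCII-deleted mice, and 832 counts in tumors and 2 counts in LN of control mice. Flt4 had 2441 counts in tumors and 2 in LN of MHCII-deleted mice, and 238 in tumors and 1 in LN of control mice. The ratio for Flt4 in MHCII-deleted mice was 1250, with a counting interval of 346 to 10329. That ratio divides by the 2 LN counts without the floor, unlike the limits of Lyve1 and Pdpn.

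Pecam1 ran the other way, with a log2 difference between tumor and LN of -1.61 ± 0.15 in MHCII-deleted mice (edgeR, adjusted p = 2.64e-05, or -0.49 scaled to the pan-T cell genes) and of -1.15 ± 0.12 in control mice (adjusted p = 7.29e-05). Prox1 had the lowest ratio of tumor to LN counts among the other markers, and its log2 difference was 2.24 ± 0.87 in MHCII-deleted mice (adjusted p = 0.0594) and 1.80 ± 0.70 in control mice (adjusted p = 0.0656). Cdh5 and Kdr did not pass in control mice either (adjusted p = 0.0765 and 0.130), and Kdr did not in MHCII-deleted mice (adjusted p = 0.0754). The tissue and deletion comparisons share libraries, so their values stand side by side and are not compared further.

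Related endothelial genes were listed beside the members to show the same libraries. Of 18 other lymphatic endothelial genes, 13 were tested in the deletion effect in tumor, 2 were higher and 0 lower. That share is close to the 15.0% of all genes called higher. The 2 were Itga9, an integrin subunit of lymphatic valves, with 4.37 and 63.5 CPM in tumors of MHCII-deleted mice against 0.366, 0.429 and 4.19 CPM in tumors of control mice (log2 4.36 ± 1.26, edgeR, adjusted p = 0.0299), and Gja1, the gap junction protein connexin 43 (2.07 ± 0.63, adjusted p = 0.0419). Reln, reelin, had 0 and 255 counts in tumors of MHCII-deleted mice and 0 in all 3 control tumors. Of 22 other blood and pan-endothelial genes, 5 were called higher and 0 lower, and several entered the test only through the tumors of MHCII-deleted mice. The called genes included Egfl7, a secreted endothelial protein, with 60.8 and 65.4 CPM in tumors of MHCII-deleted mice against 15.6, 15.6 and 18.0 CPM in tumors of control mice (1.95 ± 0.23, adjusted p = 0.000390). Cldn5, an endothelial tight junction protein, passed the test (3.81 ± 1.19, adjusted p = 0.0378) through library 2 alone, with 1.68 and 24.1 CPM in tumors of MHCII-deleted mice against 1.74, 0.925 and 0.0710 CPM in tumors of control mice. Also called were Ramp2, the adrenomedullin co-receptor (2.17 ± 0.71, adjusted p = 0.0446), and Eng, the TGF-beta co-receptor endoglin. Erg, an endothelial ETS factor, had 16 and 41 counts in tumors of MHCII-deleted mice and 0 in control tumors. It entered the test only through the tumors of MHCII-deleted mice, and its call is not read.

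Most ligands of the VEGF and angiopoietin families and their processing factors rose in tumors of MHCII-deleted mice. Of 10 genes, 7 were called higher and 0 lower, where 15.0% of all genes tested were called higher. The melanoma marker sum was also higher in these libraries, at 19404 and 23710 CPM against 4895 to 9553 CPM in tumors of control mice. Its part in the ligand levels was not tested. Vegfc, the ligand of Flt4 and the main lymphatic growth factor, had 1240 ± 168 CPM in tumors of MHCII-deleted mice (SD, n = 2) and 325 ± 147 CPM in tumors of control mice (SD, n = 3), a log2 fold change of 1.93 ± 0.35 (edgeR, adjusted p = 0.00400), and 1.36 to 3.01 CPM in LN libraries. Vegfa, the blood vessel growth factor, had 207 and 126 CPM in tumors of MHCII-deleted mice against 39.5, 39.5 and 47.6 CPM in tumors of control mice (1.98 ± 0.32, adjusted p = 0.00190). Vegfb, a ligand of VEGFR1 (2.98 ± 0.54, adjusted p = 0.00331), and Angpt2, the angiopoietin released by endothelium (3.50 ± 0.71, adjusted p = 0.00579), were higher with unequal libraries, Angpt2 at 8.54 and 55.8 CPM in tumors of MHCII-deleted mice against 2.63, 1.65 and 4.26 CPM in tumors of control mice. The others called were Pgf, Adm and Adamts3, a protease that activates VEGF-C, which had 17 and 1 counts in tumors of MHCII-deleted mice and 0 in control tumors (at least 8.45-fold higher). Among 7 VEGF receptors and co-receptors, Flt4 and Nrp2, a VEGF-C co-receptor (2.18 ± 0.41, adjusted p = 0.00458), were higher. Nrp1, a VEGF co-receptor also carried by Tregs, was lower at 172 and 214 CPM in tumors of MHCII-deleted mice against 366, 394 and 383 CPM in tumors of control mice (-0.98 ± 0.11, adjusted p = 0.000332). The pan-T cell genes fell in the same comparison, with a median log2 fold change of -1.13. A fall of Nrp1 beyond theirs was not tested. In LN, Nrp1 reached 510 and 560 CPM in MHCII-deleted mice and 528 to 562 CPM in control mice.

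Lists of other cell types moved in the same tumor libraries. Of 14 melanoma markers, 12 were higher in tumors of MHCII-deleted mice, among them Gpnmb at 4854 ± 460 CPM against 1543 ± 566 CPM in tumors of control mice (SD, n = 2 and 3), Tyrp1, Slc24a5 and Mlana. All 19 pan-T cell genes tested were lower, with a median log2 fold change of -1.13, led by Zap70, Cd3e, Lck and Cd5. Of 12 Treg markers, 11 were lower, with a median of -1.18, among them Tnfrsf18, Ctla4, Foxp3 and Tnfrsf4. That median is close to the one of the pan-T cell genes, and a fall of the Treg markers beyond theirs was not tested. Over all genes tested, 15.0% were called higher and 13.7% lower. These directions depend on the scaling: scaled to the pan-T cell genes, 9440 genes were higher and 45 lower. Among 14 fibroblast and pericyte markers, Fbln1 and Des were called higher and Thy1, which T cells also carry, was called lower. Most of that list lay lower without being called, with a median log2 fold change of -1.32 over the 14 genes. Des was high in library 2 alone, with 47.7 and 276 CPM in tumors of MHCII-deleted mice against 48.0, 21.9 and 28.1 CPM in tumors of control mice. Single genes of the remaining lists were lower: Cd79b of B cells, Xcr1 of dendritic cells and F2rl2 of platelets. The part of these lists in the endothelial values was not tested.

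Genes whose levels followed each marker most closely over the 10 libraries were named by Pearson correlation of log2 CPM, as a description. All of these correlations rest on the same 10 libraries and on the tumor and LN contrast within them. Prox1 was followed by Fuca1, Actn2 and Afg3l1 (r = 0.932, 0.929 and 0.925), and Lyve1 by Scarf2, Ptx3 and Gpihbp1 (0.994, 0.991 and 0.985). Flt4 was followed by Faxc, Fitm1 and Cntfr (0.997, 0.989 and 0.981), and Pdpn by Pcolce, Fkbp14 and S100a16 (0.999, 0.998 and 0.997). Mmrn1 and Cdh5 shared their 3 nearest genes, Sox7, Mall and Tie1 (0.993 to 0.998). Vwf was followed by Cav1, Sdsl and Prph, Pecam1 by Arhgef3, Klhl6 and Add3, Kdr by Dll4, Adcy4 and Acsl6, and Mecom by Tmc7, Myh14 and Zfp979, with r from 0.968 to 0.998. Scarf2, chosen for its correlation with Lyve1 over these same libraries, had 2.99 CPM in tumor library 1 of MHCII-deleted mice and 60.9 CPM in library 2. That it shares the split of Lyve1 follows largely from this choice.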

How the data were processed

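RNA of Tregs sorted by a red fluorescent reporter was amplified (SMARTer Ultra Low kit), prepared as Nextera XT libraries and read as single 50-base reads, per the labels' protocols. The authors deposited unnormalized counts for each Ensembl gene, 1 column per library. The submitters' processing notes name GRCm38 as the build and featureCounts 1.4.6, STAR 2.4 and CASAVA 1.8.2 as tools. The annotation release and strand setting are not given in the sources used here, so reads of overlapping antisense genes cannot be told apart, and amplification without molecular identifiers means that intervals and floors cover counting error only.

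Symbols, positions and exon lengths came from GENCODE M21, and promoter stretches from RefSeq (GRCm38.p6). Tests used R 4.3.3 and edgeR 4.0.16: filterByExpr (minimum count 10) left 13920 of 21556 genes, libraries were scaled by TMM, and a robust quasi-likelihood model with 4 group means was fitted to all 10 libraries. P-values were adjusted by Benjamini-Hochberg over all genes tested, and genes under 0.05 were called. On simulated data the fit recovered 55% of 2-fold and 88% of 4-fold changes in the deletion effect in tumor. The changed genes were drawn above a level that most members did not reach in control tumors, so recovery for such low genes was not measured. CPM values use TMM-scaled library sizes; log2 CPM for correlations took a prior count of 2. Ratios between groups use summed counts, with a floor of 3 counts only where the reference group had 0. Intervals are 95%.

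Alternatives were RLE size factors, DESeq2 1.42.0, limma-voom with quality weights (limma 3.58.1), no filter, scaling to pan-T cell genes, a replicate block, the compared groups alone, and each library left out. Named genes were the 10 members, up to 4 called genes of each other list by p, and the 3 genes most correlated with each member. The members and lists were chosen with earlier results of these data known.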

Additional observations from a re-analysis of the deposited data

How the results depend on the processing

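In the deletion effect in tumor, 5 of 10 marker genes were called. DESeq2 called 3, limma-voom 7, scaling to pan-T cell genes 8, and the tumor libraries alone 1. Of the 7 with limma-voom, 3 were shared with the main fit (Flt4, Vwf and Mecom). Mmrn1 and Cdh5 were among the 7 and the 8, and Kdr among the 7. Their calls are not read, since these genes entered the test only through the tumors of MHCII-deleted mice. With 1 library of control mice left out at a time 3 to 6 were called, the 6 including Mmrn1, Cdh5 and Kdr against control tumors at 0 counts. The 3999 genes called in the deletion effect in tumor became 9485 with pan-T scaling and 2519 with the tumor libraries alone. The 154 genes called in LN became 23 with RLE size factors, 659 with DESeq2, 787 with limma-voom, 417 with pan-T scaling, 806 with the LN libraries alone, and 0 to 611 with 1 library left out. For the difference between the deletion effects, 0 members called became 1 with pan-T scaling and 0 to 1 with 1 library left out (Kdr, set against control tumors at 0 counts), and 1491 genes became 2487 with DESeq2, 6262 with pan-T scaling and 527 to 2281 with 1 library left out. The cause was not tested.

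Some log2 differences changed sign. In tumor, Prox1 was -0.17 with limma-voom and -1.39 to 0.81 with 1 library left out, Lyve1 was -0.0589 to 4.87 with 1 library left out, and Pecam1 was 0.68 with pan-T scaling. In LN, Pecam1 was -0.0229 with RLE size factors and -0.0229 with DESeq2, and -0.0596 to 0.0917 with 1 library left out, where Prox1 was -0.753 to 0.0828. In the difference of effects, Prox1 was -0.0455 with limma-voom and -1.04 to 1.15 with 1 library left out, and Pecam1 was 0.62 with pan-T scaling. Without control tumor library 1 the tissue effects in control mice reached their lowest values, so that with 1 library left out Mmrn1 ran from 0 to 7.47, Cdh5 from -1.82 to 6.95 and Kdr from -4.79 to 6.75; that library held all tumor counts of these 3 genes in control mice.

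The deviations of same-numbered libraries of different groups had r from -0.148 to 0.0462 over 13 pairs. Of 10 libraries, 0 correlated best with one of their own number. Those pairs include libraries of different genotypes, which cannot come from 1 mouse. Between LN and tumor of the same genotype, same-numbered control pairs had r of 0.0203, 0.0385 and 0.0462. Both same-numbered pairs with the deletion had 0.0352. The pairs with different numbers ran from -0.0352 to -0.00343. In a group of 2 the deviations mirror each other, so these values cannot decide whether a shared number means a shared animal. With the replicate block, 2 members were called in the deletion effect in tumor, 0 genes in LN, and Pecam1 was -0.0124 in LN. A crossed replicate block in MHCII-deleted mice, chosen after seeing the data, called 5782 genes in the tissue effect, against 6175 without a block. Where a library left out leaves 1 in a group, that library is assumed to vary like the others. Groups of 2 and 3 and LN counts near 0 limit all of these comparisons.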
